A study of Mus musculus with 16 samples.

Results

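Pseudogenes were 279 of the 5205 genes listed in either of the deposited tables of mouse liver RNA sequencing. They were taken as the listed genes whose annotated type contains the word pseudogene and which do not lie on mitochondrial DNA. The table for TSP1F/F mice held 70 of them among 2558 genes, the table for TSP1ΔPf4 mice held 222 among 3399, and 13 pseudogenes were in both. All 16 mice were male, on a C57BL6 background and carried a floxed Thbs1 gene, which encodes thrombospondin 1 (TSP1). TSP1ΔPf4 mice (KO in the labels) also carried Cre driven by the Pf4 promoter, which is active in megakaryocytes and platelets, and TSP1F/F littermates (WT in the labels) served as controls without that deletion. Mice of each genotype were fed a low-fat (LF) diet or the AMLN diet, rich in fat, fructose and cholesterol, for 32 weeks, with 4 mice in each of 4 groups. The study's materials list the mice at 8 weeks, without saying to which point of the experiment that age applies.

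A pseudogene is a copy of a gene that no longer encodes the working protein of the gene it was copied from, here called its parent. Processed pseudogenes arise when a messenger RNA is copied back into DNA, so they lack introns and are more often copied from genes with abundant short messenger RNA, such as those of ribosomal proteins. Unprocessed pseudogenes arise from duplicated genes and keep introns, and stretches of mitochondrial DNA inserted into nuclear chromosomes form a further kind. Reads from a parent can be assigned to a copy with the same sequence, and reads of a copy to its parent.

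Both tables held only genes with an unadjusted p-value below 0.05 for AMLN against LF feeding in one genotype, as computed by the authors. The diet contrast therefore chose the pseudogenes, and diet differences are described here without a test. Levels are given in CPM, the count scaled to a common library total, where each mouse's total was worked back from the count, the gene length and the FPKM of each gene in the tables. These totals ran from 18135112 to 26649603 in TSP1F/F LF, from 18362810 to 39753019 in TSP1F/F AMLN, from 17127965 to 20700888 in TSP1ΔPf4 LF and from 23221536 to 31363462 in TSP1ΔPf4 AMLN mice. In TSP1ΔPf4 mice the totals of the LF and AMLN libraries did not overlap, and the part of this in the results was not tested. Thbs1 was listed for TSP1F/F mice alone, at 0.313, 1.82, 0.717 and 0.375 CPM on LF and at 1.94, 3.23, 13.3 and 10.1 CPM on AMLN, so its level could not be compared between genotypes. Of 10 hepatocyte markers, Serpina1a, Ttr and Tat were listed for TSP1F/F livers, all lower on AMLN, with sums of 6831 to 9215 CPM on LF and 2913 to 6173 CPM on AMLN. For TSP1ΔPf4 livers Serpina1a, Ttr and Apoa1 were listed as lower and Hnf4a as higher, with sums of 21218 to 31160 CPM on LF and 10560 to 16895 CPM on AMLN. The sums did not overlap between diets, but each marker was listed only because it differed by diet, so a difference was built into them. The hepatocyte markers that were not listed are not covered. The part of hepatocyte RNA in the results was not tested.

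The 279 pseudogenes were mostly short copies without introns. Processed pseudogenes numbered 202, transcribed processed pseudogenes 21, unprocessed pseudogenes 31, transcribed unprocessed pseudogenes 18, polymorphic pseudogenes 5 and unspecified pseudogenes 2. Their median length was 579 bases, from 78 to 9812, and 224 had 1 exon. By name, 51 carried a ribosomal protein symbol (beginning with Rp), 170 a gene model name (Gm and a number) and 58 another name. All 279 had the same coordinates in GENCODE M21, the mm10 annotation, where 174 overlapped no other gene, 42 lay in an intron on the same strand as the other gene, 42 in an intron on the opposite strand, 13 over an exon on the opposite strand and 8 over an exon on the same strand.

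Parents were assigned by aligning each pseudogene's transcript to all protein coding transcripts and taking the best match. By its symbol the parent was a cytoplasmic ribosomal protein gene for 108 pseudogenes and another protein coding gene for 157. It lay on mitochondrial DNA for 10 and was not found for 4. The symbols used did not cover Rps3a1, so its copies Rps3a3 and Gm7600 are counted among the other protein coding parents. In all, 2 pseudogenes with an Rp name, Rps3a3 being 1 of them, are counted there. The Gm names hid 58 of the 108 ribosomal protein copies, besides 49 with an Rp name and AC121151.1. Of the 86 names that end in ps, 61 aligned best to the gene in the name. Identity to the parent had a median of 98.8% and ran from 67.3% to 100%. An unbroken identical run of at least 150 bases, the length of 1 sequencing read, was shared with the parent by 180 of 279 pseudogenes (64.5%). Such runs were found in 157 of the 222 pseudogenes (70.7%) of the TSP1ΔPf4 table and in 29 of 70 (41.4%) of the TSP1F/F table. For these pseudogenes a read can match copy and parent equally well, and how the counting assigned such reads was not given in the sources used here.

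In TSP1ΔPf4 livers 195 of 222 pseudogenes (87.8%) had a lower mean on the AMLN diet and 27 a higher one, while 55.8% of all genes in that table were lower. In TSP1F/F livers 39 of 70 (55.7%) were lower and 31 higher, against 32.5% of all genes lower. These shares describe genes selected on the same contrast. Of the 222 pseudogenes, 184 passed the filter on low counts, with 166 lower and 18 higher, and their median log2 fold change (AMLN over LF, on the CPM scale) was −1.10, beside −0.54 over all genes that passed. Of the 70 pseudogenes in TSP1F/F livers, 43 passed, with 31 lower and 12 higher and a median of −0.999 beside 1.15 over all genes that passed. All 4 AMLN values lay below all 4 LF values for 101 of the 184 in TSP1ΔPf4 livers and above them for 11, where 29.1% and 20.4% of all 3089 genes that passed did so. In TSP1F/F livers the counts were 12 below and 9 above of 43, where 15.6% and 36.6% of 2096 genes did so. Since the table was chosen on this contrast, nothing is read from these shares.

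**Figure D1:**
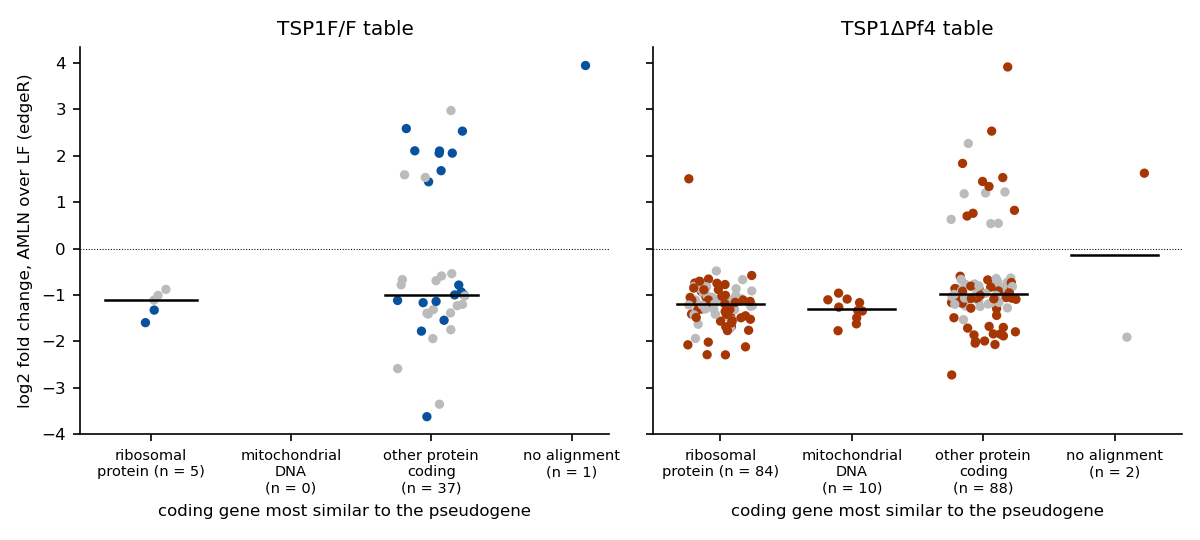
Each point is 1 pseudogene that passed the filter on low counts, placed by its log2 fold change (AMLN over LF, CPM scale) and grouped by the kind of parent, with a panel for each table. Coloured points are pseudogenes whose 4 AMLN and 4 LF values did not overlap, grey points overlapped, and lines mark medians; in TSP1ΔPf4 livers 83 of 84 ribosomal protein copies and all 10 mitochondrial copies lie below 0.

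Levels of the pseudogenes were low. The median over pseudogenes of the mean level was 1.42 CPM in the TSP1F/F table and 4.66 CPM in the TSP1ΔPf4 table, below the 4.44 and 14.8 CPM of all genes listed. Per length the order was reversed, with medians of 1.28 FPKM against 1.17 for all genes in TSP1F/F livers and 7.60 against 4.53 in TSP1ΔPf4 livers. The direction differed with the level in TSP1F/F livers: of 24 pseudogenes with a mean below 10 counts a library, 17 were higher on AMLN and 7 lower, and of 46 at or above it 14 were higher and 32 lower. In TSP1ΔPf4 livers 24 of 33 below that level and 171 of 189 at or above it were lower on AMLN. These counts were not tested.

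Ribosomal proteins form the small and large subunits of the ribosome, and their copies made up the largest family with a shared role. Of 98 such pseudogenes in the TSP1ΔPf4 table, 97 were lower on the AMLN diet, and of the 84 that passed the filter 83 were lower, with a median log2 fold change of −1.19. Of the 98, all 46 with an Rp name, 50 of 51 with a Gm name and AC121151.1 were lower. The exception was Gm4240, a copy of Rpl17 on chromosome 14, with a mean of 0.358 CPM on LF and 1.02 on AMLN. Summed over the 98, TSP1ΔPf4 LF mice had 1460, 1524, 3458 and 1990 CPM and TSP1ΔPf4 AMLN mice 889, 703, 701 and 1258 CPM. The groups did not overlap, but LF replicate 3 stood well above the other LF mice and AMLN replicate 4 above the other AMLN mice.

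The parents were lower with them. Ribosomal protein genes themselves, by the same symbols and so without Rps3a1, numbered 71 in the TSP1ΔPf4 table, all lower on AMLN. Their median log2 fold change was −1.12. Their summed level was 16414 to 40731 CPM on LF and 8759 to 15496 CPM on AMLN, so the copies held a small part of the ribosomal protein reads. For TSP1F/F livers 2 ribosomal protein genes were listed, both lower.

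**Figure D2:**
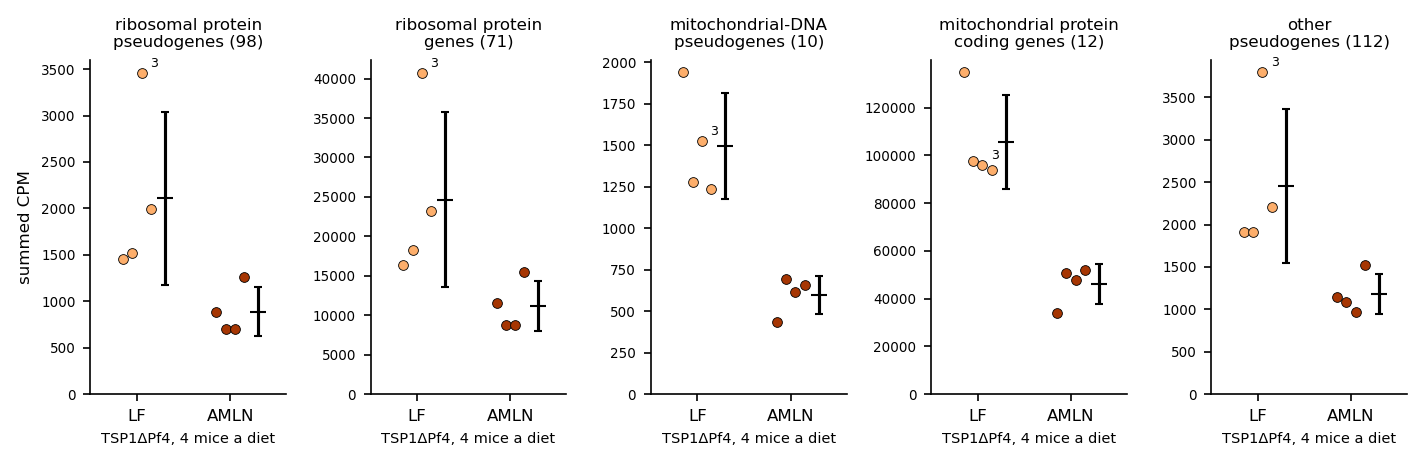
Summed CPM in each TSP1ΔPf4 mouse for 98 ribosomal protein pseudogenes, 71 ribosomal protein genes, 10 mitochondrial-DNA pseudogenes, 12 mitochondrial protein coding genes and 112 other pseudogenes, by diet, with the mean and SD over 4 mice as bar and error bar. LF replicate 3, marked 3, is the highest LF mouse in both ribosomal panels and among the other pseudogenes, and each panel's AMLN mice lie below its LF mice.

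LF replicate 3 had the highest level of the 4 TSP1ΔPf4 LF mice for 154 of the 222 pseudogenes and for 84 of the 98 ribosomal protein copies. AMLN replicate 4 was the highest AMLN mouse for 135 and 69 of them. Without LF replicate 3 the median log2 fold change of the ribosomal protein copies was −0.87 and that of all pseudogenes −0.81, with 83 of 84 and 166 of 184 lower as before. Without AMLN replicate 4 the medians were −1.40 and −1.26. The same counts were lower without each of the other mice in turn.

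The most abundant ribosomal protein copies were those of Rpl17, a protein of the large subunit. Rpl17-ps10 (chr7:72648757-72649311, minus strand, 555 bases) had 166, 184, 540 and 274 CPM in TSP1ΔPf4 LF mice and 106, 88.2, 83.1 and 161 CPM in TSP1ΔPf4 AMLN mice. Its groups did not overlap, although the lowest LF mouse was close to the highest AMLN mouse, and its log2 fold change was −1.41 (SE 0.38). Rpl17-ps3 (chr12:67510756-67511311, plus strand, 556 bases) had 197, 168, 339 and 191 CPM on LF and 54.3, 62.7, 59.0 and 103 CPM on AMLN, with a log2 fold change of −1.68 (SE 0.29). Both were listed above Rpl17 itself, at 171% and 125% of its mean CPM over 8 mice. Rpl17 had 90.0, 92.1, 427 and 107 CPM on LF and 30.2, 33.6, 43.0 and 113 CPM on AMLN, so the parent's groups overlapped where those of the copies did not. In all, 8 listed copies had Rpl17 as parent, 7 of them lower.

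Other families held one direction too. All 6 copies of Rps2, 4 of Rpl9, 4 of Rpl27a, 3 of Rpl11, 3 of Rpl21, 3 of Rpl35a and 3 of Rpsa were lower on AMLN in TSP1ΔPf4 livers. The copies of 1 parent share sequence, so they are not independent of each other. Rpl35a-ps2 showed one of the larger differences, from 1.27, 1.26, 4.55 and 2.28 CPM on LF to 0.367, 0.164, 0.383 and 1.25 CPM on AMLN, with a log2 fold change of −2.12 (SE 0.65). Gm7206, a copy of Rpl9, had 2.39, 3.04, 8.64 and 3.395 CPM on LF and 0.634, 0.905, 0.414 and 1.64 CPM on AMLN (log2 fold change −2.29, SE 0.54). AC121151.1, a copy of Rpl7a that its name does not show, fitted at −2.29 (SE 0.45), with 4.14, 1.93, 4.32 and 1.80 CPM on LF and 0.434, 0.822, 0.670 and 0.560 CPM on AMLN. Rps26-ps1, in an intron of Wwp2 on the opposite strand, went from 9.93, 5.12, 1.99 and 5.36 CPM to 1.93, 0.781, 1.40 and 1.16 CPM (log2 fold change −2.07, SE 0.47). LF replicate 3 was the lowest LF mouse for Rps26-ps1, unlike for most copies.

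For several of the abundant copies the groups overlapped or nearly touched. Rps10-ps2 had 77.4, 97.9, 245 and 131 CPM on LF and 57.6, 45.1, 47.3 and 99.9 CPM on AMLN, so AMLN replicate 4 lay above LF replicates 1 and 2 (log2 fold change −1.14, SE 0.38). Rps16-ps2 had 37.3, 30.6, 84.9 and 45.3 CPM on LF and 21.1, 15.9, 17.0 and 30.8 CPM on AMLN (log2 fold change −1.23, SE 0.33), and Rpl9-ps4 had 19.8, 27.1, 96.5 and 47.9 against 16.9, 8.51, 12.1 and 24.2 CPM (log2 fold change −1.63, SE 0.47). Both overlapped by AMLN replicate 4. Rpsa-ps10, Rpl3-ps1 and Rps2-ps13 did not overlap, with means of 46.2, 42.3 and 36.3 CPM on LF and 20.9, 22.3 and 20.7 CPM on AMLN.

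The sequences show how little separates such a copy from its gene. Rps10-ps2 differed from Rps10, a small subunit protein gene on chromosome 17, at 5 of 496 aligned bases, and all 5 lie in the 100 bases printed here, at chr16:20822168-20822267 (mm10, minus strand) and at coding bases 374 to 473 of Rps10. Capitals mark the differing bases, and both sequences are from GENCODE M21 transcripts.
Rps10-ps2: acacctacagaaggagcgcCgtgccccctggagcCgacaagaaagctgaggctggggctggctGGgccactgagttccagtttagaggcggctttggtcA
Rps10: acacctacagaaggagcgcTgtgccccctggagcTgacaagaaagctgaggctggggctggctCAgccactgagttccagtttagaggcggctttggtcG
Outside this window the aligned letters were the same, with an identical run of 392 bases. Rps16-ps2 was identical to Rps16 over its whole 441 bases.

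The ribosomal protein copies listed for TSP1F/F livers were few and low. Of 11 listed, 5 were lower and 6 higher on AMLN, and all 5 that passed the filter were lower. The most abundant, Rps4l, is annotated as a transcribed processed pseudogene in an intron of Tmtc1 on the opposite strand and was in both tables. In TSP1F/F mice Rps4l had 22.9, 49.4, 49.7 and 38.4 CPM on LF and 19.2, 20.6, 14.4 and 9.69 CPM on AMLN, without overlap (log2 fold change −1.33, SE 0.33). In TSP1ΔPf4 mice it had 34.0, 20.0, 54.6 and 29.7 CPM on LF and 19.0, 15.5, 14.1 and 21.7 CPM on AMLN, with overlap (log2 fold change −0.98, SE 0.29). Rpl7a-ps11 overlapped between diets in TSP1F/F mice, with means of 11.8 and 6.40 CPM. Rpl26-ps6 was at 0 counts in all 4 LF mice and at 0.121, 0, 0.0503 and 1.31 CPM on AMLN, at least 2.48-fold higher on the mean against a floor of 3 counts a library, and 1 mouse carried nearly all of it.

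Rps4l was the ribosomal protein copy least like a recent copy among those named, and it is shown for that reason. It matched Rps4x, its parent on the X chromosome, at 79.7% of 814 bases, and no identical run exceeded 38 bases, so reads of 150 bases can tell them apart. The window with the most differences, chr6:148355186-148355285 (mm10, plus strand), covers coding bases 477 to 576 of Rps4x, and capitals mark 30 differing bases.
Rps4l: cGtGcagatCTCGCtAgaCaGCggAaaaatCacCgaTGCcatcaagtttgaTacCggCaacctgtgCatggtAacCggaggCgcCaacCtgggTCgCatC
Rps4x: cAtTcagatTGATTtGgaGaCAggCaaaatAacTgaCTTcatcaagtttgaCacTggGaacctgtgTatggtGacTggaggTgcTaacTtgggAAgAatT
Rps4x was listed in TSP1ΔPf4 livers, at 280, 285, 256 and 264 CPM on LF and 207, 198, 205 and 239 CPM on AMLN, also lower.

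Nuclear copies of mitochondrial DNA appeared in the TSP1ΔPf4 table alone. Mitochondrial DNA encodes subunits of the respiratory chain and of ATP synthase, and 7 of the 10 copies form a run of adjacent pseudogenes on chromosome 1 from Gm28439 to Gm29216 (minus strand). From low to high coordinate these are Gm28439, Gm10222, Gm28438, Gm28437, Gm10925, Gm28661 and Gm29216, copies of mt-Nd4, mt-Nd4l, mt-Nd3, mt-Co3, mt-Atp6, mt-Co2 and mt-Co1. The annotations of Gm28439 and Gm10222 overlap. The other 3, Gm13339, Gm13340 and Gm13341, lie together on chromosome 2 in an intron of Myo3a on the opposite strand and are copies of mt-Nd2, mt-Co1 and mt-Co2. All 10 were lower on AMLN without overlap, with a median log2 fold change of −1.30 and a range from −1.77 (Gm29216) to −0.96 (Gm13340). Of all 3089 genes that passed the filter in this table, 29.1% were lower without overlap. Of the 26 listed mitochondrial genes 20 were, with a median of −1.28 over the 26, so this was not particular to the copies.

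Gm10925 had 517, 341, 385 and 358 CPM on LF and 115, 199, 175 and 178 CPM on AMLN (log2 fold change −1.26, SE 0.24). Gm28437 had 455, 318, 426 and 309 CPM on LF and 110, 162, 149 and 172 CPM on AMLN (log2 fold change −1.35, SE 0.23). LF replicate 1 was the highest LF mouse for 8 of the 10 copies, and LF replicate 3 for the other two. Summed over the 10, levels were 1238 to 1940 CPM on LF and 436 to 691 CPM on AMLN. The 12 listed mitochondrial protein coding genes summed to 93988 to 134912 CPM on LF and 33897 to 51948 CPM on AMLN, again without overlap.

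Of the 10 copies 8 shared an identical run of at least 150 bases with the mitochondrial gene, and 5 matched it at every aligned base. Gm28437 was identical to mt-Co3, a subunit of cytochrome c oxidase, over 783 bases. The first 100 coding bases of mt-Co3 are printed once for both, at chr1:24613872-24613971 (mm10, minus strand) in Gm28437, with no capitals since no base differs.
Gm28437: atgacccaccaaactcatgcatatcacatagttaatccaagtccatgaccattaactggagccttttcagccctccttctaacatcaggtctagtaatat
The share of each pair's reads listed for the copy varied widely. Gm10925 had a mean over 8 mice of 283 CPM beside 283 CPM for mt-Atp6 (100%), Gm28437 reached 68.1% of mt-Co3, Gm28661 44.8% of mt-Co2 and Gm10222 78.7% of mt-Nd4l. By contrast Gm28439 was at 1.73% of mt-Nd4 and Gm29216 at 0.527% of mt-Co1, although Gm28439 too was identical to its parent. Within pairs of like level the diet differences were close, with log2 fold changes of −1.26 and −1.28 for Gm10925 and mt-Atp6 and of −1.35 and −1.50 for Gm28437 and mt-Co3. The nuclear and mitochondrial copies cannot be told apart in these counts where the sequence is the same.

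No nuclear copy of mitochondrial DNA was listed for TSP1F/F livers. Of the mitochondrial genes 9 were listed there, all higher on AMLN, against 26 in TSP1ΔPf4 livers, all lower. These were largely different genes. The 9 had a median length of 68 bases (59 to 348), with 1 protein coding gene, mt-Nd3, among them. They summed to 69.4 to 138 CPM on LF, beside 96804 to 138833 CPM for the 26 in TSP1ΔPf4 LF mice. Mitochondrial genes that were not listed for TSP1F/F livers are not covered. mt-Nd3 was in both tables, at 69.2, 51.8, 41.9 and 59.3 CPM on LF and 90.5, 167, 70.1 and 111 CPM on AMLN in TSP1F/F mice, and at 48.9, 51.1, 172 and 57.5 CPM on LF and 16.6, 25.6, 25.4 and 29.8 CPM on AMLN in TSP1ΔPf4 mice. Its copy Gm28438 followed in TSP1ΔPf4 mice, with means of 27.2 and 8.85 CPM. A difference between the genotypes could not be tested for the copies, since they were in 1 table.

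Pseudogenes of other parents included several of genes that hepatocytes use strongly. In TSP1ΔPf4 livers 87 of 112 were lower and 25 higher, and in TSP1F/F livers 31 of 55 were lower and 24 higher. Major urinary proteins are pheromone carriers secreted by the liver of male mice, and their copies lie in a cluster on chromosome 4. Mup-ps19 (chr4:61957149-61959911, minus strand) was the most abundant pseudogene of the TSP1ΔPf4 table, with 407, 470, 968 and 477 CPM on LF and 183, 175, 82.1 and 209 CPM on AMLN. Its groups did not overlap, and its log2 fold change was −1.84 (SE 0.35). Mup20, its best match at 95.1% identity, had 4523, 4588, 9556 and 6424 CPM on LF and 2112, 2311, 1389 and 2470 CPM on AMLN, so that LF replicate 3 was the highest and AMLN replicate 3 the lowest mouse for both. All 4 copies of Mup6 were lower too, and those that passed the filter, Mup-ps13 and Mup-ps16, had log2 fold changes of −1.88 and −2.04.

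Copies of glutathione S-transferase genes, which encode detoxifying enzymes, went in both directions. Gm8834, a copy of Gstm3, was higher on AMLN in TSP1F/F livers, with means of 0.187 and 1.18 CPM and no overlap, and Gstm3 was higher too. Gm4956, whose best match was Gsta2 at 73.9% identity, was lower on AMLN in both tables with overlap. Gstp-ps, in both tables as well, is a processed copy of the glutathione S-transferase pi genes in an intron of Traf5. It had 70.7, 69.2, 96.0 and 93.6 CPM on LF and 34.6, 53.8, 24.2 and 34.3 CPM on AMLN in TSP1F/F mice (log2 fold change −1.17, SE 0.28). In TSP1ΔPf4 mice it had 45.7, 61.9, 113 and 97.7 CPM on LF and 29.99, 36.8, 29.2 and 33.6 CPM on AMLN (log2 fold change −1.29, SE 0.28). Neither genotype showed overlap between the diets.

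Gstp-ps aligned best to Gstp2, which was listed at 0.872 CPM on LF and 0.280 CPM on AMLN in TSP1ΔPf4 livers, so that Gstp-ps stood at 9716% of its CPM. Gstp1 was the abundant gene of the family. It had 457, 528, 902 and 928 CPM on LF and 311, 457, 267 and 297 CPM on AMLN in TSP1F/F mice, and 424, 470, 991 and 815 CPM on LF and 380, 361, 303 and 391 CPM on AMLN in TSP1ΔPf4 mice. Gstp-ps differed from Gstp1 at 15 of 631 bases and from Gstp2 at 5. The 100 bases with the most differences, chr1:192074123-192074222 (mm10, minus strand), correspond to coding bases 231 to 330 of both genes on chromosome 19, and capitals in the first and second line mark the 7 bases at which Gstp-ps and Gstp1 differ there.
Gstp-ps: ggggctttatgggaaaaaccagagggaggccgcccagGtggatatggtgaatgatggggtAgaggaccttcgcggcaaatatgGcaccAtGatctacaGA
Gstp1: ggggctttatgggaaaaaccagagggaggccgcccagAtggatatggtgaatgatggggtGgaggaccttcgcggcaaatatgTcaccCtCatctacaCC
Gstp2: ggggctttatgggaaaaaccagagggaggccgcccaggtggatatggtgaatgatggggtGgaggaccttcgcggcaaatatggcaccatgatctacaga
In the line of Gstp2 the capital marks the 1 base at which it differs from Gstp-ps.

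Copies of cytochrome P450 genes did not share 1 direction. Cyp21a2-ps was higher on AMLN in TSP1F/F livers, with means of 0.740 and 5.82 CPM and overlap, and its parent Cyp21a1 was higher too. Cyp2d38-ps was lower there, with means of 17.8 and 8.92 CPM. Cyp2d41-ps had the most negative log2 fold change among pseudogenes without overlap in TSP1ΔPf4 livers, from 2.07, 1.69, 2.51 and 3.87 CPM on LF to 0.701, 0.535, 0.223 and 0.0431 CPM on AMLN (log2 fold change −2.72, SE 0.62). It overlaps an exon of Gm27618 on the same strand, so reads of both can mix. Cyp2d37-ps was in both tables and overlapped between diets in both, with means of 61.8 and 42.5 CPM in TSP1F/F and 54.0 and 30.4 CPM in TSP1ΔPf4 mice on LF and AMLN. Adh6-ps1, from the alcohol dehydrogenase cluster on chromosome 3, also overlapped in both, with means of 67.0 and 27.0 CPM in TSP1F/F and 43.9 and 18.1 CPM in TSP1ΔPf4 mice.

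The 5 pseudogenes with the highest mean level in TSP1F/F livers were Gm5424, Gm10123, Gm13910, Clec7a and Gm10319. Gm5424, a copy of Ass1 (the urea cycle enzyme argininosuccinate synthase), had 370, 581, 473 and 558 CPM on LF and 254, 430, 221 and 411 CPM on AMLN, with overlap (log2 fold change −0.59, SE 0.29). Gm10123, identical over its 490 bases to Ppia, which encodes a prolyl isomerase, had 166, 360, 598 and 102 CPM on LF and 167, 76.7, 146 and 77.5 CPM on AMLN, with wide spread and overlap (log2 fold change −1.39, SE 0.51). Gm13910, a copy of Hadhb, which encodes a subunit of the mitochondrial trifunctional protein of fatty acid oxidation, had 107, 99.7, 157 and 113 CPM on LF and 62.2, 70.1, 73.7 and 70.8 CPM on AMLN, without overlap (log2 fold change −0.79, SE 0.23). Hadhb itself was lower alongside, with means of 391 and 229 CPM.

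In TSP1ΔPf4 livers Mpc1-ps, a copy of the mitochondrial pyruvate carrier gene Mpc1, had 191, 167, 300 and 234 CPM on LF and 121, 109, 107 and 194 CPM on AMLN (log2 fold change −0.75, SE 0.27). AMLN replicate 4 lay among the LF mice. Mpc1-ps was listed at 197% of the mean CPM of Mpc1. Gm10039, a copy of Atp5g1 (ATP synthase subunit c), was in both tables, with means of 42.4 and 26.2 CPM in TSP1F/F and of 39.5 and 26.2 CPM in TSP1ΔPf4 mice. All 4 listed copies of Atp5l, another ATP synthase subunit gene, were lower in TSP1ΔPf4 livers, and Gm10221 and Atp5l2-ps, which passed the filter, had log2 fold changes of −1.70 and −2.07.

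Where the parent was listed in the same table, copy and parent mostly had the same direction. In TSP1ΔPf4 livers the parents of 168 pseudogenes, 116 genes, were listed, and 157 pairs were both lower, 7 both higher and 4 opposite. Gm4956 was lower while Gsta2 was higher, and Gm3851, Nxpe1-ps and Gm4240 were higher while Hmgb1, Nxpe2 and Rpl17 were lower. Identity within these pairs was 73.9% for Gm4956, 97.2% for Gm3851, 71.5% for Nxpe1-ps and 84.8% for Gm4240. The best match was taken as parent without a lower limit on identity. In TSP1F/F livers 14 of 15 pairs had 1 direction, the exception being Gm6776 and Lztfl1. The median level of a copy was 3.12% of its parent's CPM in TSP1ΔPf4 and 16.8% in TSP1F/F livers. Both members were selected on the diet contrast, and a shared read sequence ties them, so the pairs are given as a description.

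**Figure D3:**
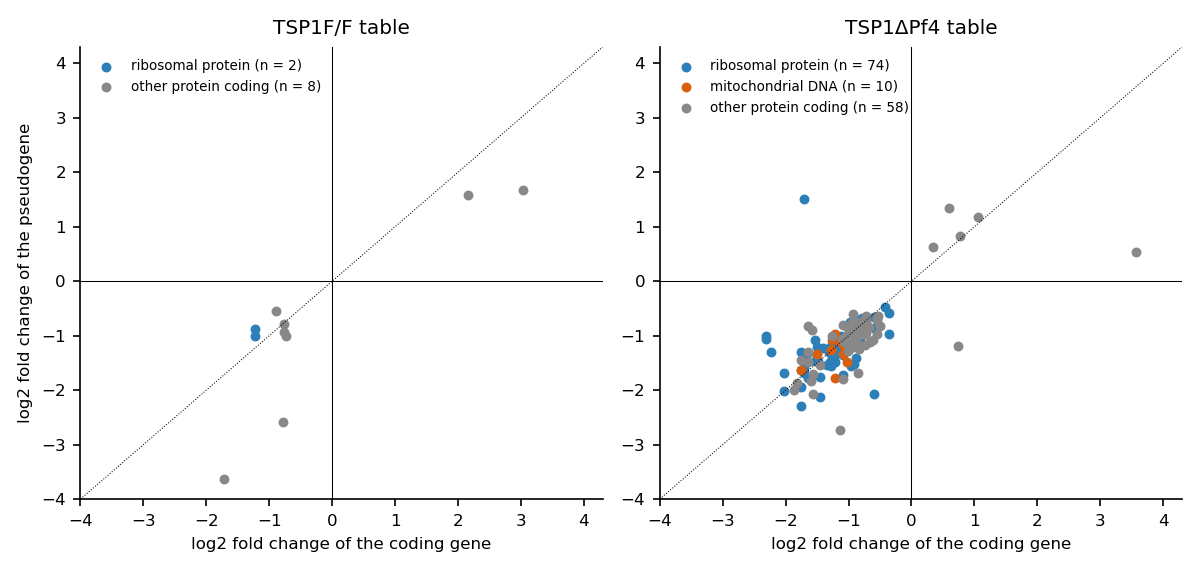
Log2 fold change (AMLN over LF, CPM scale) of a pseudogene, vertical axis, against that of the coding gene it aligned to best, horizontal axis, for pairs in which both were listed and passed the filter: 10 pairs in TSP1F/F and 142 in TSP1ΔPf4 livers. The dotted line marks equal change; most TSP1ΔPf4 pairs sit in the lower left, where both are lower on AMLN.

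In 7 pairs in TSP1ΔPf4 and 2 in TSP1F/F livers the copy was listed above the parent. Gm7336, identical to Gapdh (a glycolytic enzyme) at 99.8% of bases, had 20.2, 22.8, 12.03 and 20.6 CPM on LF and 33.4, 30.02, 29.0 and 17.6 CPM on AMLN. Gapdh was listed at 1.91, 1.21, 1.34 and 1.75 CPM on LF and at 32.7, 0.863, 38.9 and 1.12 CPM on AMLN. Gapdh thus was high in 2 AMLN mice and near the LF level in the other two, while Gm7336 had 17.6 to 33.4 CPM there. Gapdh is abundant in nearly all cells, and its listed level in 7 of 8 mice was below that of its copy.

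A pseudogene and the gene that holds it on the same strand did not always match. Gm7666, a copy of Phb that overlaps an exon of Fyb, an adaptor gene of T cells and platelets, had a log2 fold change of −1.11, with means of 24.2 and 11.3 CPM, while Fyb was at 1.27. AC114990.3, in an intron of Map3k13, was at −1.10 and its host at 1.10. Strand use in the counting was not given in the sources used here, so reads of a pseudogene and of a gene on the other strand may mix.

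Pseudogenes that were higher on AMLN were fewer and mostly of low level. Clec7a encodes dectin-1, a receptor for fungal beta-glucans on macrophages and other myeloid cells, and is annotated as a polymorphic pseudogene, which means that a working allele exists in some strains. It aligned to no other coding gene, so it counts as a pseudogene here by its annotated type alone and not as a copy of a parent. In TSP1F/F mice it had 6.002, 11.5, 23.2 and 3.79 CPM on LF and 50.2, 74.3, 90.6 and 478 CPM on AMLN (log2 fold change 3.96, SE 0.82). In TSP1ΔPf4 mice it had 3.03, 3.48, 10.4 and 4.08 CPM on LF and 10.6, 14.9, 12.6 and 26.5 CPM on AMLN (log2 fold change 1.62, SE 0.43). The diets did not overlap in either genotype, although in TSP1ΔPf4 mice the highest LF and lowest AMLN values were close.

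Macrophage markers moved with Clec7a, and they too were listed only because they differed by diet. All 10 were listed in TSP1F/F livers, 9 higher on AMLN and Marco lower, with summed levels of 95.9 to 627 CPM on LF and 669 to 2482 CPM on AMLN. Of the 10, 8 were listed in TSP1ΔPf4 livers, all higher, summing to 81.2 to 187 CPM on LF and 270 to 372 CPM on AMLN. In each of the 4 groups the same mouse was highest for Clec7a and for this sum. In whole liver, fewer cells of a type and less RNA per cell cannot be told apart.

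Mrgprb11-ps, an unprocessed copy from a family of receptors that includes the mast cell receptor Mrgprb2, was higher in both tables. It had 0, 1.55, 1.82 and 0.300 CPM on LF and 3.06, 6.20, 3.09 and 3.43 CPM on AMLN in TSP1F/F mice (log2 fold change 2.11, SE 0.93). It had 0, 0, 0.467 and 0.584 CPM on LF and 1.70, 1.19, 2.39 and 0.732 CPM on AMLN in TSP1ΔPf4 mice (log2 fold change 2.53, SE 0.87). Gm5182, a long processed copy of Acaca (acetyl-CoA carboxylase, of fatty acid synthesis), rested on 1.88, 2.63, 1.38 and 1.46 CPM on LF and 5.29, 3.28, 5.21 and 6.15 CPM on AMLN in TSP1F/F mice. In TSP1ΔPf4 mice its diets overlapped, with means of 2.19 and 4.97 CPM, and Acaca was higher alongside, at 15.7 and 32.6 CPM.

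In TSP1F/F livers Gm11843, a copy of Ube2v2, had 1.15, 0.858, 1.05 and 0.225 CPM on LF and 2.995, 3.19, 5.84 and 7.62 CPM on AMLN (log2 fold change 2.59, SE 0.61). Gm18890 and Gm1966 were also higher without overlap, with means of 0.276 and 0.523 CPM on LF and 1.63 and 2.27 CPM on AMLN. Gm1966 and Gm8995 are copies of Gvin1, a large interferon-inducible GTPase gene, and Gm8995 had means of 1.69 and 7.01 CPM. Lower without overlap in TSP1F/F livers were 12 pseudogenes that passed the filter, among them the more abundant Gm13910, Gstp-ps and Rps4l given above. At few counts were 3000002C10Rik (means 0.843 and 0.0639 CPM), Gm8971 (0.769 and 0.217 CPM) and Mrpl48-ps (1.32 and 0.460 CPM), which also belong to the 12. In TSP1ΔPf4 livers Gm49326, a fragment of 126 bases matching Asap2, had at most 3 counts in any LF mouse and 1.40, 0.987, 2.01 and 0.732 CPM on AMLN, at least 8.03-fold higher against a floor of 3 counts a library. Gm11223 and Gm1840, copies of Stmn1 and Gpi1, had means of 0.225 and 0.266 CPM on LF and 0.813 and 0.774 CPM on AMLN.

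Direction went with gene length in the TSP1ΔPf4 table for coding genes too. Among protein coding genes, 19 of 20 below 500 bases were lower on AMLN, 147 of 165 between 500 and 1000 bases, 445 of 548 between 1000 and 2000, 550 of 898 between 2000 and 4000 and 350 of 1291 at 4000 or more. Among pseudogenes the counts were 91 of 95, 83 of 91, 13 of 25, 6 of 8 and 2 of 3. In both kinds of gene the short classes were mostly lower, and the share of pseudogenes was below that of coding genes in the class of 1000 to 2000 bases, a difference that was not tested. In TSP1F/F livers coding genes were lower in 2 of 7, 28 of 66, 136 of 326, 296 of 763 and 258 of 1123 cases, and pseudogenes in 12 of 18, 12 of 20, 9 of 14, 6 of 9 and 0 of 9. All 9 pseudogenes of at least 4000 bases there, Gm5182, Gm1966 and Gm8995 among them, were higher. Length is that of the annotated exons, and it also sets the FPKM. The part of length in the direction of the pseudogenes was not tested.

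**Figure D4:**
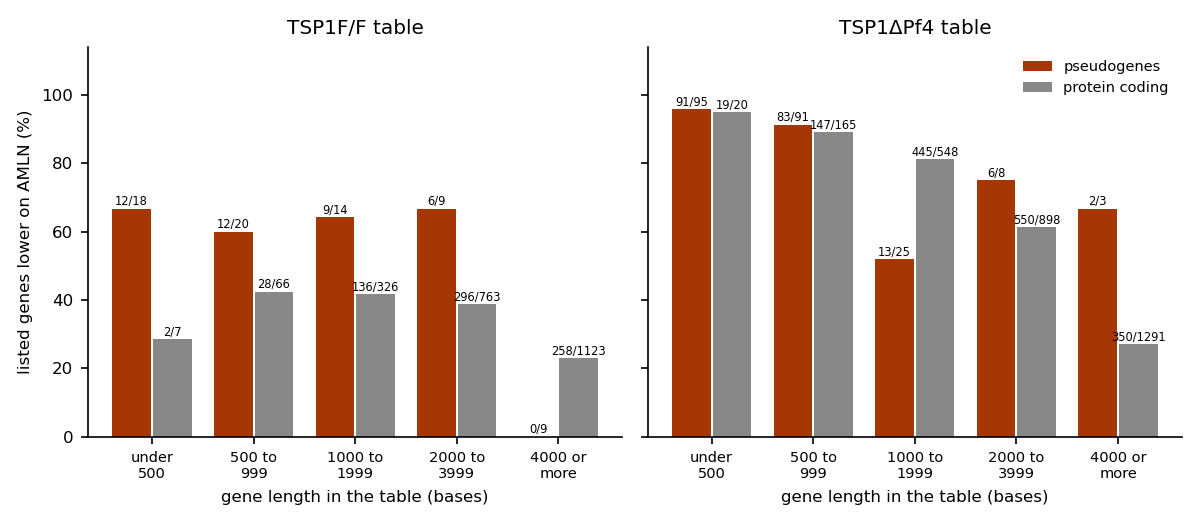
Percent of listed genes with a lower mean on AMLN than on LF, by annotated gene length in bases, for pseudogenes and protein coding genes of each table, with the number of genes above each bar. In TSP1ΔPf4 livers the bars fall with length for coding genes, from 95% below 500 bases to 27.1% at 4000 bases or more.

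The pseudogenes in both tables allow the genotypes to be compared. They were Gstp-ps, Gm10319, Clec7a, Cyp2d37-ps, Adh6-ps1, Gm10039, Rps4l, Gm4956, Gm5182, Mrgprb11-ps, Gm4202, Gm15452 and Obox4-ps1, and 12 of the 13 had the same diet direction in both genotypes, as Gm4202 did not. The share over all genes in both tables is not given here, so nothing is read from this count. Genotype was tested with the edgeR quasi-likelihood test over the 752 genes in both tables, with Benjamini-Hochberg adjustment, and a call needed an adjusted p below 0.05 together with a log2 fold change above 0.25 in size. The same mice had been used to select these genes by diet, so the tests are not fully independent of the selection. The p-values set each difference against the spread between mice, which was estimated jointly over genes selected by diet.

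**Figure D5:**
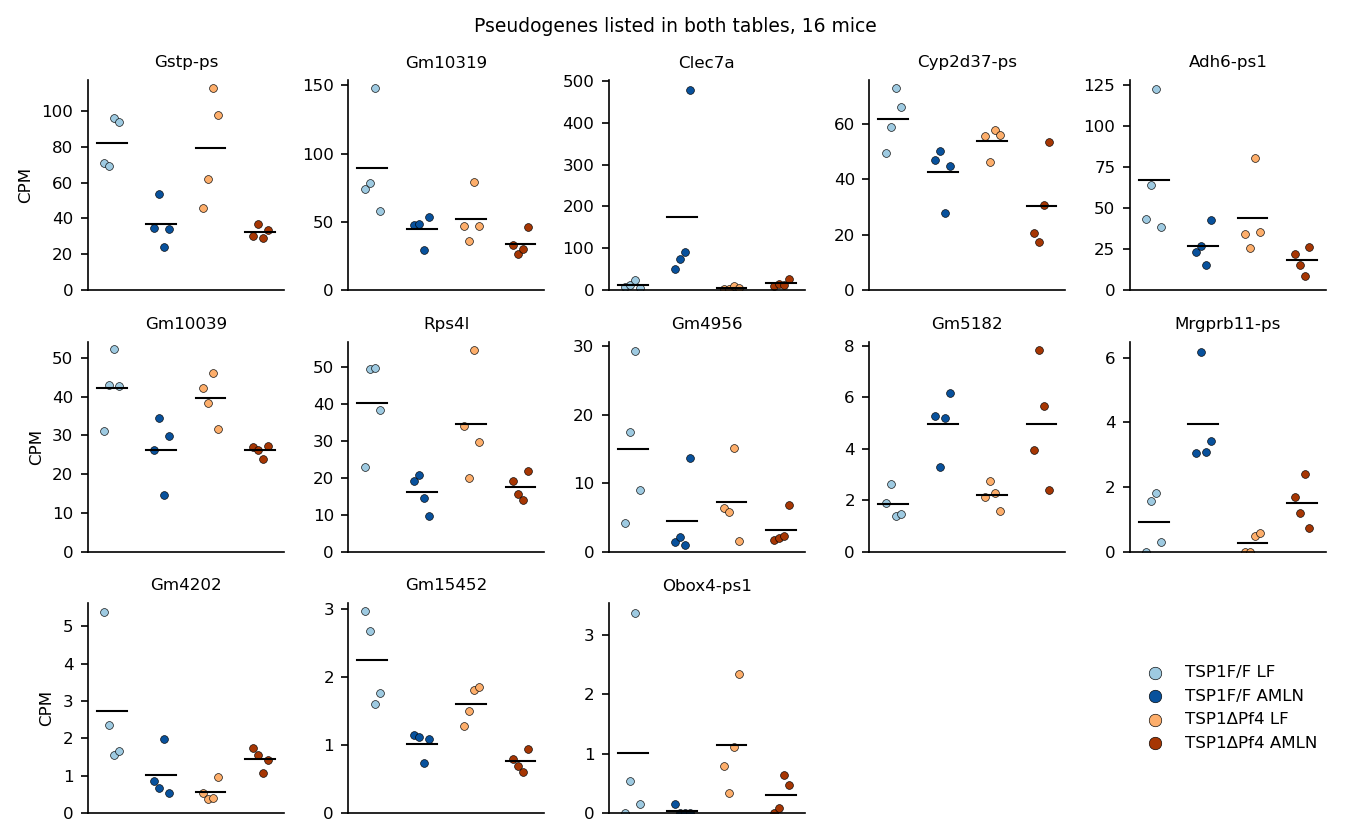
CPM of the 13 pseudogenes listed in both tables in each of the 16 mice, by genotype and diet, 1 panel per pseudogene with its own axis; each point is a mouse and each line the mean of 4 mice. Clec7a is highest in TSP1F/F AMLN mice, and Gm4202 is higher in TSP1F/F LF than in TSP1ΔPf4 LF mice without overlap.

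On the AMLN diet 12 pseudogenes were tested and 1, Clec7a, was called, lower in TSP1ΔPf4 mice. Of the 733 genes tested, 8.46% were called lower and 0.546% higher in TSP1ΔPf4 mice. Clec7a had a log2 fold change (TSP1ΔPf4 over TSP1F/F) of −3.42 (SE 0.67, edgeR adjusted p = 0.00906), and every TSP1ΔPf4 AMLN mouse was below every TSP1F/F AMLN mouse. An exact two-sided permutation test on its CPM gave p = 0.0286, the smallest that 4 against 4 mice can give. That value follows from the lack of overlap and was not adjusted for the 12 pseudogenes tested. Mrgprb11-ps, which was not called, gave the same value. Without TSP1F/F AMLN replicate 4, the mouse at 478 CPM, the log2 fold change was −2.15 and the call held (edgeR adjusted p = 0.00993). The 8 macrophage markers in both tables summed to 572 to 2268 CPM in TSP1F/F AMLN and 270 to 372 CPM in TSP1ΔPf4 AMLN mice, and their part in the difference of Clec7a was not tested.

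Mrgprb11-ps was below all TSP1F/F AMLN mice in every TSP1ΔPf4 AMLN mouse too, but did not pass (log2 fold change −1.38, SE 0.49, edgeR adjusted p = 0.102). The other 10 had overlapping groups, with log2 fold changes from −0.57 (Adh6-ps1) to 0.50 (Gm4202). Gstp-ps, Rps4l, Gm10039 and Gm5182 had fitted differences of −0.18 (SE 0.28), 0.14 (SE 0.30), −0.00346 (SE 0.29) and −0.00373 (SE 0.41). Of the 12, 10 were on the lower side in TSP1ΔPf4 mice and 2 on the higher side, but scaling by TMM or DESeq2 size factors turned this to 7 and 5. The median over all genes tested moved from −0.38 with library totals to −0.10 and −0.02, and 7 of the 12 lay below that median under each scaling.

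On the LF diet none of 12 pseudogenes was called by edgeR, and none of the 640 genes tested was called (0% in either direction). At an unadjusted p below 0.05 there were 44 genes, 2 of them pseudogenes, Gm4202 and Gm10319, and DESeq2 called 1 gene and no pseudogene. Gm4202, a processed copy of Ywhaz (a 14-3-3 protein gene) with 99.9% identity, had 5.38, 2.36, 1.54 and 1.65 CPM in TSP1F/F LF and 0.531, 0.386, 0.409 and 0.955 CPM in TSP1ΔPf4 LF mice. The groups did not overlap (log2 fold change −2.25, SE 0.61, edgeR adjusted p = 0.554).

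No diet response of a pseudogene was called different between the genotypes by edgeR. Only pseudogenes selected by diet in both genotypes could enter this test, a selection that leaves out those with a diet difference in 1 genotype alone. The test therefore says nothing about the pseudogenes listed for 1 genotype. Of the 734 genes tested, 0.409% were called with a more negative response in TSP1ΔPf4 mice and 0% with a more positive one, and 2 of the 13 pseudogenes, Gm4202 and Clec7a, had an unadjusted p below 0.05. Gm4202 had 0.847, 0.674, 1.99 and 0.545 CPM in TSP1F/F AMLN and 1.73, 1.56, 1.08 and 1.42 CPM in TSP1ΔPf4 AMLN mice, so it was lower on AMLN in the first genotype, with overlap, and higher in the second, without. The difference of its log2 fold changes was 2.75 (SE 0.83, edgeR adjusted p = 0.0777), and it passed under other scalings and in DESeq2, as given with the dependence on processing. For Clec7a the difference was −2.34 (SE 0.94, edgeR adjusted p = 0.212). For Gstp-ps, Gm10039 and Adh6-ps1 it was −0.13 (SE 0.41), 0.10 (SE 0.37) and 0.04 (SE 0.63).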

How the data were processed

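Liver RNA of 16 mice was sequenced. Per mouse, the deposited tables held raw read counts, counts divided by a size factor (a normalised signal made by the authors) and FPKM computed by the authors, besides the authors' log2 fold changes, p-values and adjusted p-values of AMLN against LF. The deposited p-values were used only to see that every gene lay below 0.05. The submitters' processing notes name HISAT2, DESeq2 and mm10, and the study's methods name STAR as aligner. Counting software, its strand setting and its handling of reads with several matches were not given in the sources used here.

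Library totals were recovered from counts, lengths and FPKM. They were not whole numbers and may hold a scaling factor. CPM is the count divided by this total, scaled as in the FPKM values. Filters were edgeR's filterByExpr, fits were made with edgeR 4.0.16 in R 4.3.3 with totals as offsets, and DESeq2 1.42.0, TMM, other filters, a replicate block, a common fit of all mice and leaving out each mouse were alternatives. The fits were tested on simulated data. Dispersion came from genes selected by diet. Parents were found with blastn 2.17.0 (e-value limit 1e-10) against GENCODE M21 transcripts, and printed sequences are windows of 100 bases from them.

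Groups came from the labels. The labels do not say that same-numbered mice belong together, so the numbers were not taken as pairs in the main fits. Deviations of same-numbered mice of the 2 genotypes from their group means were correlated over genes in both tables. For replicates 1 to 4 the correlations were 0.28, 0.10, 0.31 and 0.40 on AMLN and 0.21, 0.06, 0.45 and −0.05 on LF. An effect shared by replicate number was not tested, and fits with it as a block are among the alternatives. Named pseudogenes were those in both tables (12 with the highest mean), up to 5 with the largest rise and fall without overlap and the 5 with the highest mean in each table, up to 8 Rp-named ones with the highest mean, called ones, and their parents. Gm4240, Gm7336, Gm7666, Gm8834, Cyp21a2-ps, Cyp2d38-ps, AC114990.3, Gm8995, the mitochondrial copies other than Gm10925 and Gm28437, Obox4-ps1 and the members of families given by range were added after their values were seen. The members and lists were chosen with earlier results of these data known. The values of 1 named pseudogene are not reported here.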

Additional observations from a re-analysis of the deposited data

Results flagged for a closer look

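For named pseudogenes and summed levels, 130 groups of 4 mice were looked at for a mouse far from the other three, and 13 had one. The limit used gives about 1 in 20 for independent normal values. These groups share mice and related sequences, so the count of 13 is not compared with that rate. TSP1ΔPf4 LF replicate 3 was the mouse in 5 of them: Clec7a at 10.4 CPM (others 3.03 to 4.08), Gm7206 at 8.64 CPM (others 2.39 to 3.395), Mup-ps19 at 968 CPM (others 407 to 477), Rpl17-ps3 at 339 CPM (others 168 to 197) and the sum of pseudogenes with another protein coding parent at 3799 CPM (others 1908 to 2206). TSP1F/F AMLN replicate 4 was the mouse in 3: Clec7a at 478 CPM (others 50.2 to 90.6), Gm4956 at 13.6 CPM (others 0.906 to 2.11) and Rpl26-ps6 at 1.31 CPM (others 0 to 0.121). TSP1ΔPf4 AMLN replicate 4 was the mouse in 2, with Gm4956 at 6.80 CPM (others 1.63 to 2.26) and Mpc1-ps at 194 CPM (others 107 to 121). The rest were Mrgprb11-ps in TSP1F/F AMLN replicate 2 at 6.20 CPM (others 3.06 to 3.43), Gm15452 in TSP1F/F AMLN replicate 3 at 0.730 CPM (others 1.09 to 1.15) and 3000002C10Rik in TSP1F/F LF replicate 1 at 1.46 CPM (others 0.590 to 0.713).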

How the results depend on the processing

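The count of pseudogenes called for genotype was 1 on the AMLN diet and 0 on the LF diet under every alternative run. For the diet response between genotypes the count was 0 with library totals and 1, Gm4202, with an adjusted p below 0.1, in DESeq2 (log2 difference 3.17, adjusted p = 0.00289), with TMM in edgeR (3.31, adjusted p = 0.0499) and with DESeq2 size factors in edgeR (3.17, adjusted p = 0.0467), and 0 without each replicate in turn. Over all alternatives its adjusted p ran from 0.00289 to 0.167. The pseudogenes then lay on the higher side for 12 of 13 under those 3 scalings and for 9 of 13 with library totals. With the replicate number as a block, edgeR called 1 pseudogene on AMLN (Clec7a, log2 fold change −2.88), 0 on LF and 0 for the diet response. That block moved the count over all genes on AMLN from 66 to 116 and for the diet response from 3 to 0. Other counts over all genes for the diet response were 44 in DESeq2, 15 with TMM, 18 with DESeq2 size factors and 53 at an adjusted p below 0.1. The number of pseudogenes lower on AMLN was 31 in TSP1F/F and 166 in TSP1ΔPf4 livers in normalised counts, with medians and without each mouse. With no filter the numbers were 39 and 195. FPKM gave the same directions by construction, since CPM differs from it only by a factor fixed for each gene. Of 593 recomputed log2 fold changes of named pseudogenes between diets, 0 changed sign. Shared sequence with the parent, low counts and selection by diet limit all of these values.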
